A study of Rattus norvegicus with 56 samples.

Results

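The hippocampus of aged-impaired (AI) rats was compared with that of young (Y) rats, all from the sham arm of a brain stimulation study. The members were the first hippocampus arrays of 4 AI_Sham and 4 Y_Sham animals, taken by array title, so that each animal gave 1 value per probe. These were 8 of the 56 arrays of the series. Repeat arrays of the same animal and region were left out. All animals were male Long-Evans rats. The young group was 6 to 7 months of age and the aged group 26 to 27 months. That the aged rats were impaired is taken from the array titles. The study describes sorting of aged rats by a water maze for its experiment with hippocampal slices, and not for these rats. Sham rats were sedated with dexmedetomidine (0.035 mg/kg in young, 0.03 mg/kg in aged rats) and the stimulation coil was kept away from the head. Dorsal hippocampus was collected 48 h later. Age and sedative dose therefore cannot be told apart in this comparison. Other groups were compared only for context. These were 4 aged-unimpaired sham rats (AU_Sham) and the parietal cortex of the same sham rats. Young and aged-impaired rats given intermittent theta burst stimulation (4 Y_iTBS and 3 AI_iTBS) were the others. Aged-unimpaired rats given the stimulation (AU_iTBS) entered the fit alone. The spread behind each SE and p, and the probe filter, came from all 24 first hippocampus arrays of these groups.

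The hippocampus supports spatial learning, the ability that the water maze measures. Microglia are its resident macrophages. They signal through the receptor TREM2 and its adaptor TYROBP, digest material in lysosomes marked by CD68, and make the C1q proteins that start the classical complement cascade, in which C4 and then C3 are cleaved. MHC class I molecules show peptides to CD8 T cells and need beta-2 microglobulin (B2M), whereas MHC class II molecules need the invariant chain CD74 and show peptides to CD4 T cells. Higher activity of these systems is a known feature of the aged rodent brain. Fast transmission in the same tissue runs through glutamate receptors of the AMPA, NMDA and kainate classes and through GABA receptors.

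With each gene represented by its probe of highest mean signal, Cd68 had the smallest p among named genes higher in AI_Sham animals and Grik4 the smallest among those lower, so the promoters of these genes are shown. Each is the 250 bases before the start of the gene in RefSeq's annotation of the rat build GRCr8, 5′ to 3′ on the gene's strand, which is the minus strand for both. Capitals mark the letters GAGGAA or, on the other strand, TTCCTC, the core of the site read by PU.1, the transcription factor that specifies macrophages and microglia.
Cd68, chr10:54882442-54882691: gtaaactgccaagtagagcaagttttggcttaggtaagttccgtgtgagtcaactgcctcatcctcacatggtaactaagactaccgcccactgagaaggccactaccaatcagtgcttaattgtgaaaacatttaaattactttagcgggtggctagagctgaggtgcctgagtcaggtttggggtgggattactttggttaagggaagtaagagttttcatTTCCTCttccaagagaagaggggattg
Grik4, chr8:52102064-52102313: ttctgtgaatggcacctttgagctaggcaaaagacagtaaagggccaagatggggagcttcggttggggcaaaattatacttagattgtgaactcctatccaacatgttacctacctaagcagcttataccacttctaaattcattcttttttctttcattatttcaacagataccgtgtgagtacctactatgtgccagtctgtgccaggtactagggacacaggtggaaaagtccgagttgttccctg
The Cd68 promoter held 1 match, 27 bases before the start, and the Grik4 promoter held none. The letters were found in 2 of 10 promoters of the named genes higher in AI_Sham animals, in 2 of 9 of those lower, and in 23.3% of all 33469 promoters in the table. The match is a description of the letters and not of binding.

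All values below are normalized log2 signals of 1 probe, on a scale where 0 is the mean of an array, and a difference of 1 is a doubling. Levels of different probes are not compared. On the 8 arrays, 62.7% to 67.2% of probes were well above background. The tissue matched its label: C1ql2, Fibcd1, Klk8, Neurod6, Nr3c2, Wfs1 and Zbtb20 were higher in hippocampus than in the cortex of the same animal in 8 of 8 animals, while the cortex genes Rorb, Cux2 and Fezf2 were so in 0 of 8. Prox1, a dentate granule cell gene, was an exception and was higher in hippocampus in 2 of 8. The arrays of the groups lay largely on different slides. Y_Sham 3 and 4 were on slide 1 and AI_Sham 2, 3 and 4 on slide 2, both scanned in batch 1, whereas Y_Sham 1, Y_Sham 2 and AI_Sham 1 shared slide 7 (batch 3). Within batch 1 the slide and the age group cannot be told apart.

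Some arrays also stood apart in genes of neighbouring tissues. The 15 choroid plexus genes had a summed log2 signal of 7.61 to 9.26 in Y_Sham and 7.75 to 10.9 in AI_Sham animals, with high values in AI_Sham 1 (10.9), AI_Sham 3 (9.96) and Y_Sham 1 (9.26). Transthyretin (Ttr), the leading secreted product of the choroid plexus, measured 8.98, 6.97, 7.12 and 7.33 in Y_Sham and 10.7, 7.17, 9.77 and 7.51 in AI_Sham animals. The 14 genes of meninges and fibroblasts summed to 9.02 to 9.37 in Y_Sham and 9.12 to 10.7 in AI_Sham animals, again highest in AI_Sham 3 and 1. The 9 red blood cell genes summed to 9.04 to 10.2 in Y_Sham and 9.85 to 10.8 in AI_Sham animals, and their median difference was 0.60. In bulk tissue, more cells of a type and more RNA per cell cannot be told apart. Results for the main genes are therefore given with all arrays and without AI_Sham 1 and 3.

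**Figure D1:**
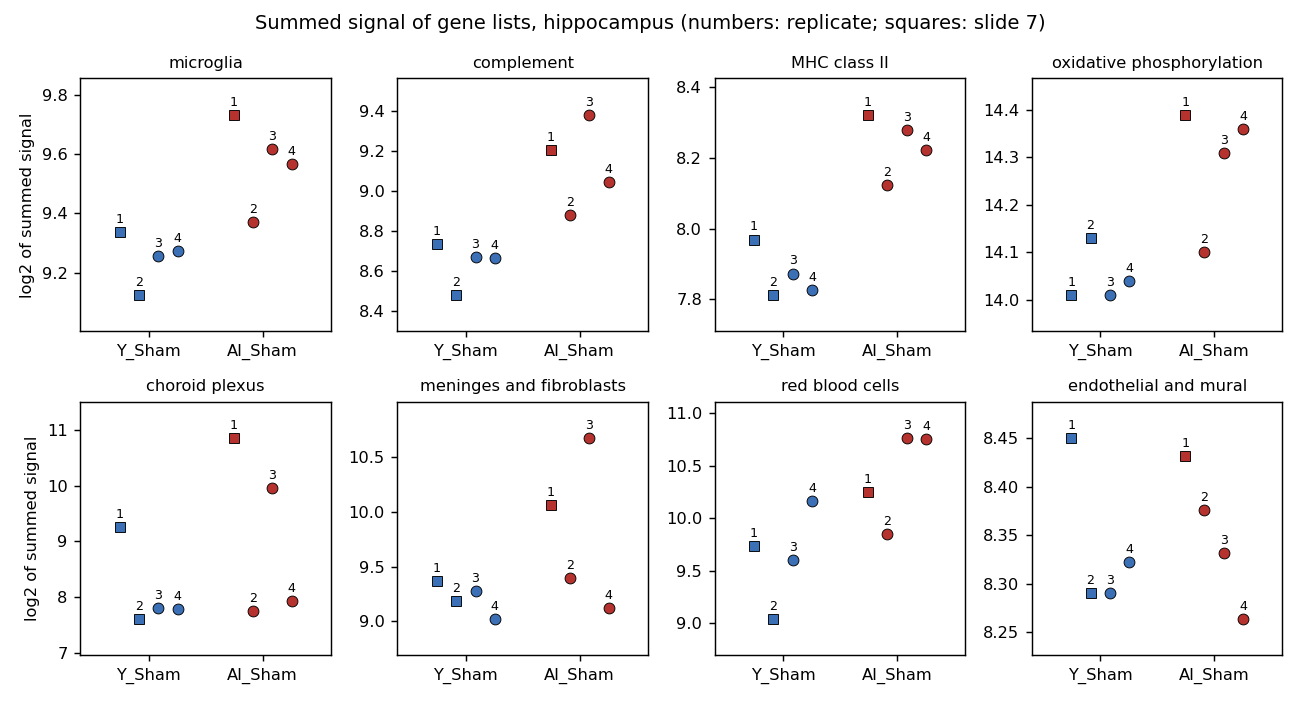
Log2 of the summed signal of 8 gene lists in each hippocampus array of the Y_Sham and AI_Sham animals (4 each), with the replicate number above each point and squares for arrays of slide 7. For microglia, complement and MHC class II genes all 4 AI_Sham points lie above all 4 Y_Sham points, while choroid plexus genes are high in AI_Sham 1 (10.9), AI_Sham 3 (9.96) and Y_Sham 1 (9.26). Members of high signal weigh most in a sum. For the class II genes Cd74 and RT1-Da, Y_Sham 1 lay within the AI_Sham range.

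No probe passed the test. Of 32417 probes well above background on at least 3 of the 24 first hippocampus arrays, limma called 0 at an adjusted p under 0.05 (0% called), and the smallest adjusted p was 0.113. At an unadjusted p under 0.05 there were 3562 probes (11%), where 1621 would lie by chance, of which 1217 were higher in AI_Sham (3.75% of those tested) and 2345 lower (7.23%). This split depended on the scaling of the arrays. The higher share was 34.2% of these probes with array z-scores, 60.8% with scaling to the 75th percentile of each array and 19.1% with the deposited z-score table. All 4 AI_Sham arrays lay above all 4 Y_Sham arrays for 839 probes (2.59%) and below them for 1443 (4.45%). With slide as a block in the same model 891 probes were called, Cd68 and C4b among them (adjusted p 0.0263 and 0.0109 in limma), and 2 without AI_Sham 1. Without the block no member of any gene list passed the test, and the lists are described by counts at the unadjusted threshold and by their medians, beside a median of -0.03 over all probes tested.

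Of 18 microglia genes tested, 7 were higher in AI_Sham animals at an unadjusted p under 0.05, and none was called without the slide block. Cd68 (NM_001031638), which encodes a lysosomal glycoprotein of macrophages, measured 1.65, 1.35, 1.80 and 1.84 in Y_Sham and 2.92, 2.27, 2.86 and 2.56 in AI_Sham animals. All 4 AI_Sham animals lay above all 4 Y_Sham animals. The difference was 0.99 (SE 0.16, limma p 3.78e-06, adjusted p 0.113), and 0.76 without AI_Sham 1 and 3. Tyrobp, the adaptor through which TREM2 signals, measured 5.78, 5.18, 5.68 and 5.68 in Y_Sham and 6.39, 6.10, 6.45 and 6.34 in AI_Sham animals, again without overlap. Its difference was 0.74 (SE 0.15, limma adjusted p 0.257), and 0.64 without AI_Sham 1 and 3. Trem2 itself measured 5.43, 5.27, 5.45 and 5.50 in Y_Sham and 5.93, 5.70, 5.79 and 5.83 in AI_Sham animals. The groups did not overlap, with a difference of 0.40 (SE 0.10, limma adjusted p 0.316).

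No microglia gene was lower at an unadjusted p under 0.05, where 3.75% of all probes were higher and 7.23% lower, and the median difference of the list was 0.26. Beside Cd68, Tyrobp and Trem2 the 7 included Fcer1g (0.55), another adaptor of immune receptors, Laptm5 (0.42), a lysosomal membrane protein of blood-derived cells, and Aif1 (0.34), which encodes the microglial protein IBA1. P2ry12, Tmem119 and Cx3cr1, receptors and surface proteins of resting microglia chosen here after their values were seen, differed by 0.04 (SE 0.14), -0.07 (SE 0.21) and 0.07 (SE 0.23). The microglia median kept its direction under each alternative run and was 0.07 without AI_Sham 1 and 3, the lowest of them. The list of activated microglia genes had 5 of 17 higher and 1 lower, with a median of 0.32. Those higher were Ccl3 (0.77), a chemokine, Lyz2 (0.55), lysozyme, Ctsd (0.43) and Ctsz (0.32), lysosomal proteases, and Clec7a (0.76), a receptor for fungal glucans. The 1 lower member was lipoprotein lipase (Lpl), described below. Of 22 lysosome genes, 6 were higher and 0 lower, with a median of 0.10, among them Ctss (0.36), a protease that trims class II MHC complexes, Ctsa (0.29) and Ctsb (0.28).

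**Figure D2:**
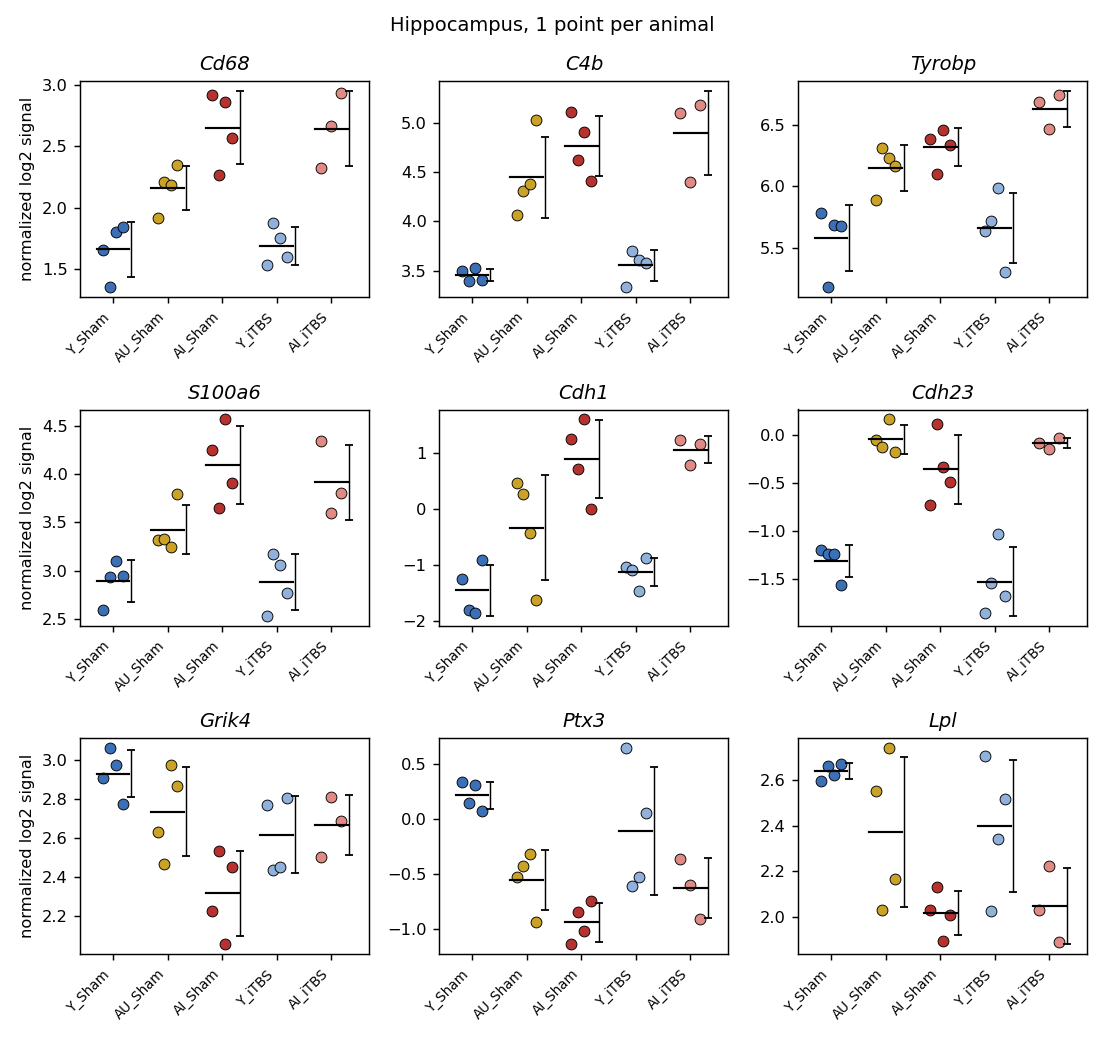
Normalized log2 signal of 9 genes in the hippocampus of Y_Sham (4), AU_Sham (4), AI_Sham (4), Y_iTBS (4) and AI_iTBS (3) animals, 1 point per animal, with horizontal lines for group means and bars for ± 1 SD. For Cd68, C4b, Tyrobp, S100a6, Cdh1 and Cdh23 the AI_Sham points lie above the Y_Sham points, and for Grik4, Ptx3 and Lpl below, without overlap.

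Of 20 complement genes tested, 10 were higher in AI_Sham animals at an unadjusted p under 0.05 and 0 lower, and none was called without the slide block. C4b (NM_001002805), the fourth component, measured 3.49, 3.40, 3.52 and 3.41 in Y_Sham and 5.12, 4.63, 4.91 and 4.42 in AI_Sham animals. The Y_Sham values spanned 3.40 to 3.52, and the lowest AI_Sham value was clear of them. The difference was 1.31 (SE 0.22, limma p 6.97e-06, adjusted p 0.113), and 1.07 without AI_Sham 1 and 3. A second C4b probe differed by 0.93. C4a, a near-identical copy, differed by 1.03 (SE 0.23), and since the probes may share transcripts the values of C4a and C4b are not separable here. C3, the component on which all complement pathways converge, measured 4.75, 3.57, 4.02 and 3.08 in Y_Sham and 5.05, 4.95, 5.11 and 4.55 in AI_Sham animals. Y_Sham 1 lay within the AI_Sham range, and the difference was 1.06 (SE 0.32, limma p 0.00357, adjusted p 0.373).

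Of the complement genes, 6 did not overlap between the groups, where 2.59% of all probes were higher without overlap. The median difference was 0.36 and lay between 0.22 and 0.51 in the alternatives run. C1qa differed by 0.49 and C1qb by 0.51, both without overlap, while C1qc, the third chain of the same molecule, differed by 0.16 (SE 0.22). C1s, a protease of the C1 complex, differed by 0.01 (SE 0.20) on 1 probe and by 0.25 (SE 0.23) on another. Cfd, the protease of the alternative pathway, differed by 1.01 (SE 0.26). The remaining 4 were Serping1 (0.73), which inhibits C1, Itgam (0.42) and Itgb2 (0.42), the chains of complement receptor 3, and Cd55 (0.83), which limits complement at cell surfaces.

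MHC genes followed with larger spread. The class II invariant chain Cd74 measured 4.12, 2.08, 2.25 and 1.79 in Y_Sham and 4.19, 3.60, 4.58 and 3.97 in AI_Sham animals. RT1-Da, a class II alpha chain, measured 1.96, 0.14, 0.24 and -0.23 in Y_Sham and 2.16, 1.27, 2.46 and 1.82 in AI_Sham animals. For both genes Y_Sham 1 was as high as the AI_Sham animals and the other 3 Y_Sham animals were below all of them. The differences were 1.52 (SE 0.53, limma p 0.00927) for Cd74 and 1.40 (SE 0.59, limma p 0.0273) for RT1-Da, with adjusted p of 0.406 and 0.428. Of 9 class II genes, 3 were higher and 0 lower, with a median of 0.53, the third being Ctss. Of 21 class I genes, 4 were higher and 0 lower, with a median of 0.12. These were RT1-T24-3 (0.71), RT1-A1 (0.44) and RT1-A2 (0.42), heavy chains of a family whose close copies a probe may not separate, and B2m (0.29). B2m measured 7.65 to 7.72 in Y_Sham and 7.73 to 8.15 in AI_Sham animals.

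Among 26 interferon-induced genes, 4 were higher and 0 lower, with a median of 0.29. Isg15, a ubiquitin-like protein made on interferon signalling, measured 1.47, 1.56, 1.24 and 1.5 in Y_Sham and 2.13, 2.00, 2.40 and 2.02 in AI_Sham animals, without overlap (difference 0.70, SE 0.24). Irf7, a transcription factor of the interferon response, differed by 0.61 and Rtp4 by 0.66, both without overlap. Irf9 differed by 0.35 on 1 probe and by -0.04 on a second. Of 22 chemokine and cytokine genes, 2 were higher and 0 lower. These were Ccl21 and Cxcl11, both well above background on 0 of 4 Y_Sham and 2 of 4 AI_Sham arrays, so that they have bounds only, at least 1.73-fold and at least 1.03-fold higher in AI_Sham. The T and B cell list, which could mark lymphocytes in the tissue, had 0 of 10 genes higher and 1 lower (Cd8b, -0.65), with a median of 0.08.

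The astrocyte list had 5 of 18 genes higher and 0 lower, with a median of 0.24. Aldoc (0.42), an aldolase of glycolysis, Agt (0.34), angiotensinogen, Gjb6 (0.30), a gap junction protein, Slc1a3 (0.29), a glutamate transporter, and Glul (0.26), glutamine synthetase, were the 5. Gfap, the intermediate filament used as a sign of astrocyte reaction, was not among them. It measured 5.13, 5.25, 5.25 and 4.50 in Y_Sham and 5.11, 5.34, 4.99 and 4.82 in AI_Sham animals, and the groups overlapped throughout. The difference of 0.03 (SE 0.18) took the other sign with the deposited z-score table (-0.02) and with slide as a block (-0.03). Apoe differed by 0.31 (SE 0.22) and by -0.06 with quantile normalization.

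**Figure D3:**
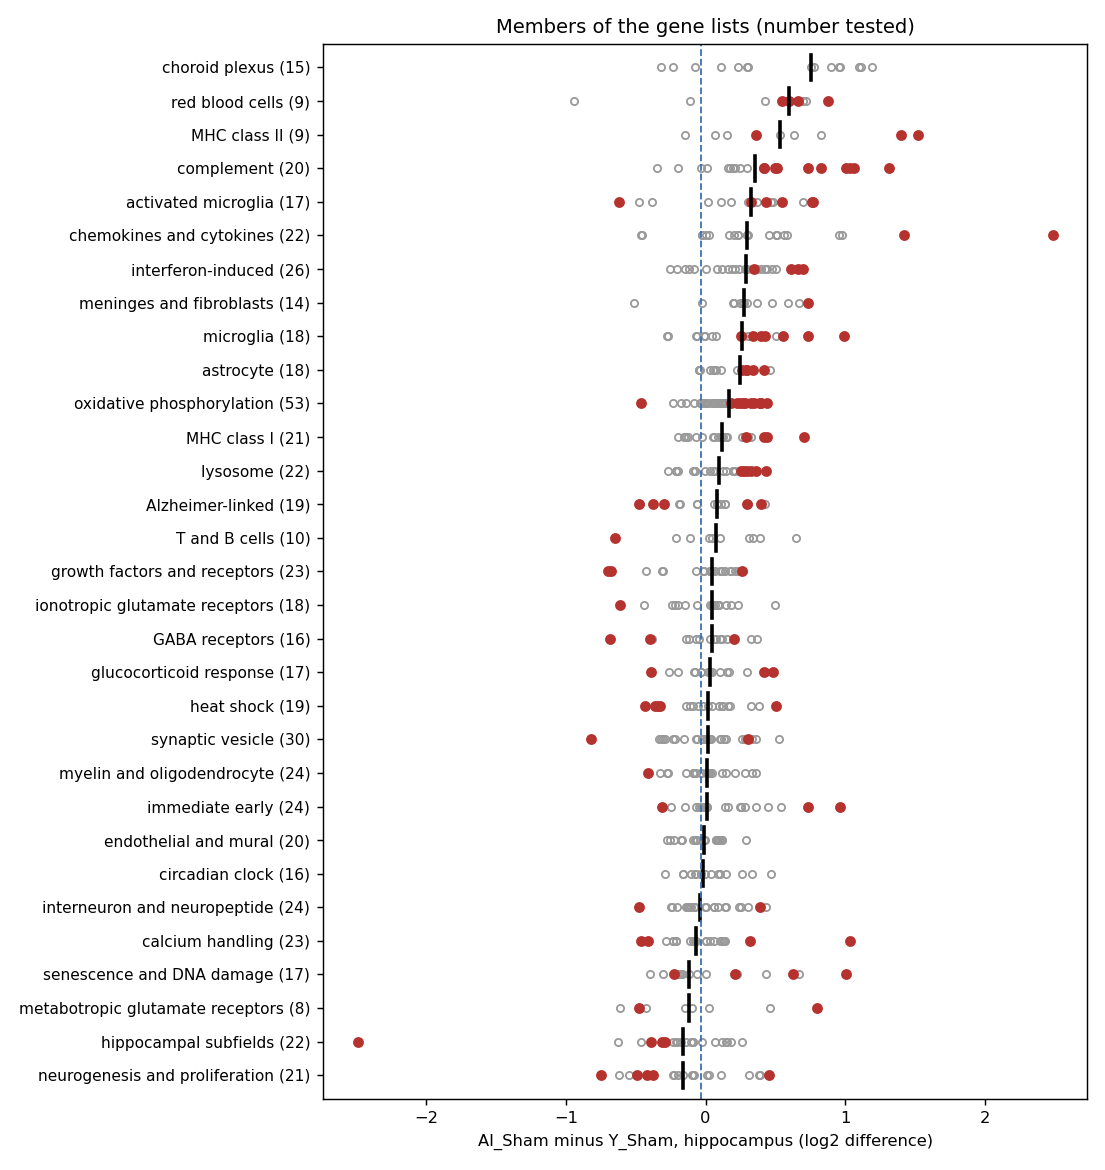
Difference AI_Sham minus Y_Sham in hippocampus (log2) for each tested member of 31 gene lists, filled where the unadjusted limma p was under 0.05, with a black bar for the median of the list and a dashed line for the median of all probes (-0.03). The highest medians are those of choroid plexus (0.75), red blood cell (0.60), MHC class II (0.53) and complement genes (0.36), and the lowest those of hippocampal subfield and neurogenesis genes (both -0.16).

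Other genes with a small p on the higher side included some of cell adhesion and calcium binding. S100a6, a calcium-binding protein, measured 2.59, 2.93, 3.1 and 2.94 in Y_Sham and 4.25, 3.65, 4.56 and 3.91 in AI_Sham animals, and was highest in AI_Sham 3 and 1. The difference was 1.2 (SE 0.22, limma adjusted p 0.184), and 0.88 without AI_Sham 1 and 3. E-cadherin (Cdh1), an adhesion protein of epithelia, measured -1.24, -1.80, -1.84 and -0.90 in Y_Sham and 1.25, 0.72, 1.61 and 0.01 in AI_Sham animals. The groups did not overlap, and AI_Sham 3 and 1 were again highest. The difference was 2.34 (SE 0.41, limma adjusted p 0.114), and 1.81 without AI_Sham 1 and 3. The part of choroid plexus and meningeal genes, which were high in the same 2 animals, was not tested.

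Cdh23, a cadherin of hair cell tip links, measured -1.2, -1.24, -1.24 and -1.56 in Y_Sham and -0.73, 0.12, -0.33 and -0.49 in AI_Sham animals. It was not highest in AI_Sham 1 or 3. The difference was 0.95 (SE 0.18, limma adjusted p 0.224), and 1.12 without AI_Sham 1 and 3. The rest of the 12 genes of smallest p on this side were Apol9a (0.87), an interferon-inducible apolipoprotein L, Bpifb4 (1.04), a lipid-binding protein, Cyp2d5 (0.58), a cytochrome P450, Tbx4 (1.35), a T-box transcription factor, and Vill, a villin-like actin-binding protein. A second Tbx4 probe differed by 0.00. Vill was well above background on 0 of 4 Y_Sham and 4 of 4 AI_Sham arrays, so that only a bound can be given, at least 1.92-fold higher in AI_Sham.

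Among the receptor subunits lower in AI_Sham animals were Grik4 and Gabra5, neither of them called without the slide block. At an unadjusted limma p under 0.05, 1 of 18 ionotropic glutamate receptor genes and 2 of 16 GABA receptor genes were lower. Of all probes tested, 7.23% were lower at that threshold. Grik4 (NM_012572), a kainate receptor subunit of the CA3 region, measured 2.91, 3.06, 2.97 and 2.77 in Y_Sham and 2.23, 2.53, 2.05 and 2.45 in AI_Sham animals. Each AI_Sham value was under each Y_Sham value, most in AI_Sham 3. The difference was -0.62 (SE 0.13, limma p 0.000134, adjusted p 0.273), and -0.44 without AI_Sham 1 and 3. Gabra5, the GABA-A receptor subunit of tonic inhibition in hippocampus, measured 3.39, 3.47, 3.21 and 3.05 in Y_Sham and 2.62, 2.96, 2.27 and 2.54 in AI_Sham animals, without overlap. Its difference was -0.68 (SE 0.19, limma p 0.00211).

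Ptx3, a secreted pentraxin of innate immunity, measured 0.33, 0.14, 0.31 and 0.07 in Y_Sham and -1.14, -0.84, -1.02 and -0.74 in AI_Sham animals. The difference was -1.15 (SE 0.25, limma adjusted p 0.315), and -1.01 without AI_Sham 1 and 3. Lpl, which hydrolyses triglycerides of lipoproteins, measured 2.60, 2.66, 2.62 and 2.67 in Y_Sham and 2.03, 2.13, 1.90 and 2.01 in AI_Sham animals. Both groups were narrow and far apart, with a difference of -0.62 (SE 0.15, limma adjusted p 0.316).

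Pnlip, pancreatic lipase (-0.89), Rem2, a GTPase that restrains calcium channels (-0.77), Magee2 (-0.64), Kcnq5, a potassium channel of the M-current (-0.59), Colq, the collagen tail of acetylcholinesterase (-0.86), and C5h1orf50 (-0.45) were also among the 12 genes of smallest p on this side. They were well above background on all 8 arrays, and none of them overlapped. Ube2t, a ubiquitin-conjugating enzyme of DNA repair (-1.14), did not overlap either, but was well above background on 1 of 4 AI_Sham arrays. Pitx3 (-2.22) and Pou1f1 (-1.02), homeobox transcription factors, did overlap. Pitx3 was well above background on 3 of 4 Y_Sham and 1 of 4 AI_Sham arrays, and Pou1f1 on 4 of 4 and 3 of 4.

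Of 18 ionotropic glutamate receptor genes, 0 were higher and Grik4 alone was lower at an unadjusted p under 0.05, and the median was 0.05 (-0.01 with quantile normalization). Grin1 (0.09, SE 0.22), the obligate NMDA receptor subunit, and Gria1 (-0.06, SE 0.25), an AMPA receptor subunit, are given as examples chosen after their values were seen. Of 16 GABA receptor genes, Gabra5 and Gabra2 (-0.40, with -0.01 on a second probe) were lower and Gabbr2 was higher on 1 probe (0.20) and lower on another (-0.44). The median of 0.04 took the other sign with quantile normalization (-0.00), the deposited z-scores (-0.02) and normexp background correction (-0.03). Of 8 metabotropic glutamate receptor genes, Grm7 was lower (-0.47, with 0.03 on a second probe) and Grm8 higher (0.80).

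Other neuronal lists held few genes past the unadjusted threshold. Of 30 synaptic vesicle genes, the vesicular glutamate transporter Slc17a8 was lower (-0.82) and Bsn, a scaffold of the active zone, higher (0.31). The median of 0.02 took the other sign with each other scaling or background correction (-0.08 to -0.04). Snap25, a core fusion protein chosen here after its value was seen, differed by 0.00488 (SE 0.11). Of 23 calcium handling genes, 2 were higher (Atp2a2 0.32, the pump of the endoplasmic reticulum, and Atp2b4 1.03, a plasma membrane pump that was well above background on 2 of 4 Y_Sham arrays) and 2 lower (Cacna1a -0.46, a P/Q-type channel, and Atp2b1 -0.41). Of 24 interneuron and neuropeptide genes, Calb1, the calcium buffer calbindin, was lower (-0.47, limma p 0.0457) and Cck, cholecystokinin, higher (0.39). Sst (0.43, SE 0.26) and Npy (0.09, SE 0.19) did not pass, and Npy took the other sign with scaling to the 75th percentile (-0.04) or quantile normalization (-0.07).

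Of 22 hippocampal subfield genes, 0 were higher and 4 lower, with a median of -0.16 that kept its sign in each alternative run. Nr3c2, the mineralocorticoid receptor, differed by -0.39 and by -0.54 on a second probe, Cpne4 by -0.31 and Klk8, a protease of synaptic plasticity, by -0.29. Iyd, iodotyrosine deiodinase, was well above background on 2 of 4 Y_Sham and 0 of 4 AI_Sham arrays, at least 1.92-fold higher in Y_Sham as a bound. Of 21 neurogenesis and proliferation genes, 1 was higher and 4 lower, with a median of -0.16. In the stimulated animals 17 of the 21 had a positive difference, with a median of 0.22. The summed log2 signal of the list, in which members of high signal weigh most, was also higher in AI_Sham (9.76 to 10.1) than in Y_Sham animals (9.50 to 9.58). The 1 higher member was Stmn1, a regulator of microtubules (0.46, with -0.04 on a second probe). The cell cycle genes Cdk1 (-0.75), Ccnb2 (-0.49) and Bub1 (-0.42) were lower, as was Dpysl3 (-0.37), a cytoskeletal protein of growing axons. Doublecortin (Dcx), made by newborn neurons, differed by -0.09 (SE 0.14) and took the other sign with slide as a block (0.09).

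Genes of oxidative phosphorylation were mostly above 0. Of 53 tested, 44 had a positive difference, where 44.9% of all probes did, and 11 were higher and 1 lower at an unadjusted p under 0.05. The examples of smallest p were Cox5a (0.40), Ndufb3 (0.33), Ndufb8 (0.44), Ndufa5 (0.35) and Cox4i1 (0.39), subunits of complexes I and IV. The median of 0.17 was -0.01 with quantile normalization, so the direction of this list depended on the scaling. In the cortex of the same animals its median was -0.06.

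Remaining lists lay near the median of all probes or moved in both directions. Circadian clock genes had 0 of 16 past the threshold in either direction, and endothelial and mural genes 0 of 20. Myelin and oligodendrocyte genes had 0 of 24 higher and 1 lower (Mal, -0.41), with a median of 0.01 that was -0.06 to -0.04 under the other scalings. Mbp, the myelin basic protein, differed by 0.33 on 1 probe and by -0.23 on another. Glucocorticoid response genes had 2 of 17 higher, the metallothioneins Mt2A (0.48) and Mt1 (0.42), and 1 lower (Nr3c2), while Fkbp5 differed by 0.05 (SE 0.11) and took the other sign with scaling to the 75th percentile (-0.00203), the deposited z-scores (-0.01) and normexp (-0.03). Immediate early genes had 2 of 24 higher, Ccn1 (0.97) and Fosb (0.73), both highest in AI_Sham 1, and 1 lower, Nptx2 (-0.31). Arc differed by 0.36 (SE 0.22) and by -0.02 within batch 1. Heat shock genes had 1 of 19 higher (Cryab, 0.50) and 4 lower, among them Hspa2 (-0.43) and Hsph1 (-0.34). Senescence and DNA damage genes had 3 of 17 higher and 1 lower, with a median of -0.12 that was 0.14 with scaling to the 75th percentile. Growth factors and receptors had 1 of 23 higher and 2 lower (Pdgfb -0.70 and Ntf3 -0.68), and Bdnf differed by -0.31 (SE 0.26). Alzheimer-linked genes had 2 of 19 higher (Trem2 and Mapt, the latter 0.30 on 1 probe and -0.05 on a second) and 3 lower, among them Cdk5 (-0.38) and Sorl1 (-0.29). Apart from the senescence list, the medians of the lists from circadian clock to Alzheimer-linked genes lay between -0.02 and 0.08, and each took the other sign under at least 1 other scaling or background correction.

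Choroid plexus genes had 0 of 15 higher or lower with a median of 0.75, which was -0.55 without AI_Sham 1 and 3. Ttr (1.19, SE 1.07) was -0.26 without these 2 animals. Kl, the klotho protein, was well above background on 0 of 4 Y_Sham arrays and on 2 of 4 AI_Sham arrays (1 and 3), at least 1.2-fold higher in AI_Sham as a bound, with the opposite sign without these 2 animals. Meninges and fibroblast genes had 1 of 14 higher, the prostaglandin synthase Ptgds (0.73), and a median of 0.27, which was -0.23 without them. Red blood cell genes had 4 of 9 higher, among them the globins Hba-a1 (0.88) and Hbb-b1 (0.60), and their median was 0.48 without them. In AI_iTBS minus Y_iTBS, 0 of the 9 red blood cell genes were positive (median -0.28), and 5 of the 14 meninges and fibroblast genes (median -0.46). Of the choroid plexus genes 14 of 15 were positive there (median 0.78). Without AI_Sham 1 and 3 the medians of complement, MHC class II, interferon-induced and astrocyte genes were 0.22, 0.31, 0.22 and 0.14.

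Whether the impaired differed from the unimpaired aged animals was asked with the AU_Sham group, which the test compared with AI_Sham directly. Slide and impairment were largely joined here, since 3 of 4 AU_Sham arrays were on slide 1 and 3 of 4 AI_Sham arrays on slide 2. limma called 0 of 32417 probes (0% called), with 1290 at an unadjusted p under 0.05 (3.98%), where 1621 would lie by chance. C4b measured 4.07, 4.31, 4.38 and 5.03 in AU_Sham animals, above all Y_Sham values, and 3 of the 4 were below all AI_Sham values. Cd68 measured 1.92, 2.21, 2.18 and 2.35 in AU_Sham animals, above all Y_Sham values and overlapping with AI_Sham at 1 animal. AI_Sham exceeded AU_Sham by 0.49 (SE 0.16, limma p 0.00564, adjusted p 0.9999). For Grik4 the AU_Sham animals measured 2.63, 2.47, 2.98 and 2.87, which overlapped with both other sham groups, and the difference AI_Sham minus AU_Sham was -0.42 (SE 0.13, limma p 0.00443). Cdh23 was the only probe called in AU_Sham minus Y_Sham, at 1.27 (limma adjusted p 0.0311, 0.00308% called), against 0.95 in AI_Sham minus Y_Sham, and these comparisons share the Y_Sham animals.

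The same age contrast in animals that shared no sample with the sham comparison was AI_iTBS minus Y_iTBS. Of the stimulated arrays, 3 of 4 Y_iTBS lay on slide 1 and 2 of 3 AI_iTBS on slide 2. Slide and age were therefore partly joined as in the sham animals, and both contrasts came from 1 fit with a shared spread. In the stimulated contrast limma called 45 probes (0.139%), 41 higher and 4 lower in aged animals, with 33 of them named. In sham animals all 45 had the same sign, where 58% of all probes and 80.5% of those at a sham p under 0.05 did, and 31 of the 45 were at a sham p under 0.05 in the same direction. Among these were Cd68 (0.96 stimulated, 0.99 sham), C4b (1.34, 1.31), Tyrobp (0.96, 0.74), Trem2 (0.70, 0.40), C3 (1.75, 1.06), Cdh23 (1.44, 0.95), Apol9a (1.59, 0.87), Bpifb4 (1.96, 1.04), Cd74 (3.23, 1.52), RT1-Da (3.33, 1.40) and Isg15 (1.33, 0.70). The sham minus stimulated difference for Cd74 was -1.70 (unadjusted limma p 0.0409) and for RT1-Da -1.93 (unadjusted limma p 0.0377). Among the 12 genes of smallest sham p in each direction, some had a smaller unadjusted limma p for this difference. These were Grik4 (-0.67, p 0.00247), Ube2t (-1.28, p 0.00404), Bpifb4 (-0.92, p 0.00762), Apol9a (-0.72, p 0.01065) and C5h1orf50 (-0.43, p 0.0118). Across all probes, the test of the sham minus the stimulated contrast called 0 of 32417 (0%), with 1175 at an unadjusted p under 0.05 (3.62%). Over the mean of the sham and stimulated contrasts, added after the sham result was seen and sharing its animals, limma called 159 probes (0.49%), 118 higher and 41 lower.

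Of probes higher at a sham p under 0.05, 20.7% were also higher at a stimulated p under 0.05, against 3.88% of all probes. Of probes lower, 11.2% were also lower, against 4.3%. These shares were not compared by a test. Among genes lower in AI_Sham animals, Grik4 differed by 0.05 in the stimulated animals, Ube2t by 0.15, Gabra5 by -0.07, Lpl by -0.35 and Ptx3 by -0.52. Stimulated animals also had called genes whose sham difference was small, chosen here after their values were seen. These were Serpina3n, a protease inhibitor of reactive astrocytes (2.23 stimulated, 0.23 sham), Gpnmb, a glycoprotein of phagocytes (1.14, 0.32), and RT1-CE10 (1.10, 0.11). Gfap differed by 0.62 in stimulated and 0.03 in sham animals, and the test of that difference gave an unadjusted limma p of 0.0375.

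**Figure D4:**
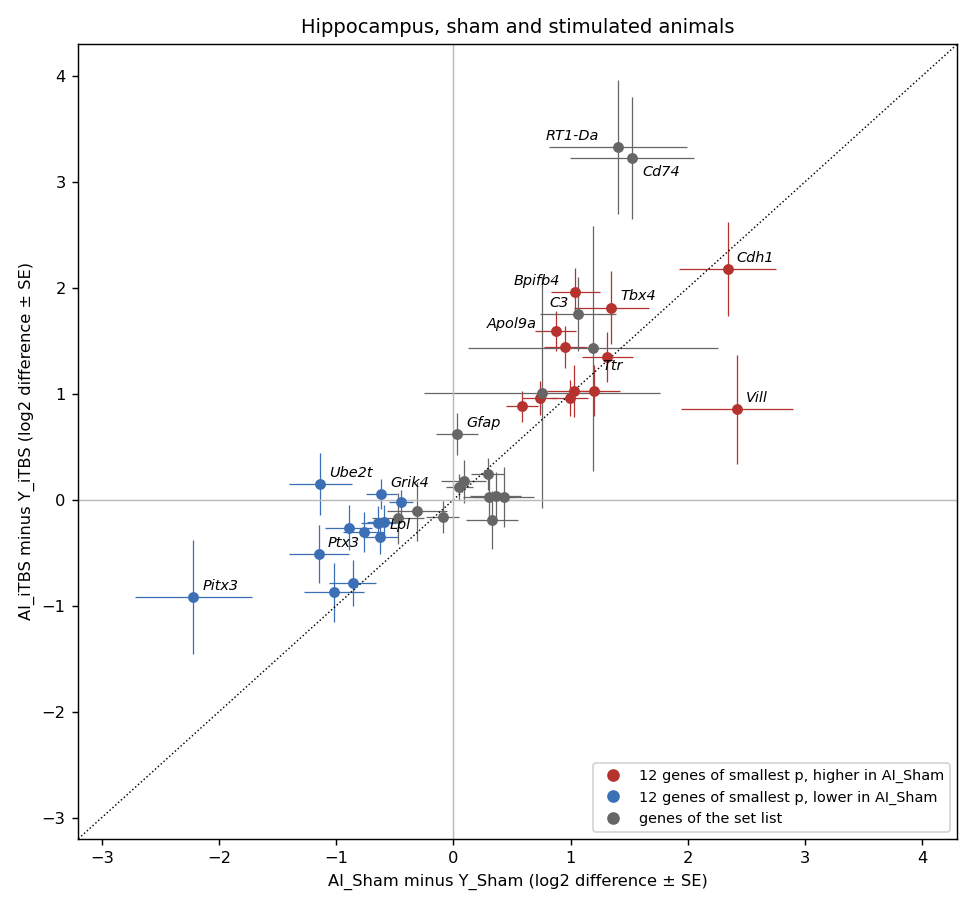
Difference between aged-impaired and young animals in hippocampus (log2, ± SE) in sham animals (horizontal axis) and stimulated animals (vertical axis) for the 12 genes of smallest p in each direction and the set list of genes, with a dotted line of equal differences. The genes higher in AI_Sham animals have positive values on both axes, Cd74 (1.52, 3.23) and RT1-Da (1.40, 3.33) lie above the line, and Grik4 (-0.62, 0.05) lies near 0 in stimulated animals.

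In the parietal cortex of the same 8 animals limma called 26 of 32603 probes (0.0797%), 22 higher and 4 lower in AI_Sham. The named genes were C3 (1.57 in cortex, 1.06 in hippocampus), C4a (1.55, 1.03), C4b (1.19, 1.31), Bpifb4 (2.74, 1.04), Klf14 and Spdye4. In cortex Cd68 differed by 0.61 (SE 0.25), Tyrobp by 0.18 (SE 0.26), Trem2 by -0.00356 and Gfap by 0.85 (SE 0.33), none of them called. The test of hippocampus minus cortex within each animal called 1 of 33720 probes (0.00297%), an unnamed transcript. It was steady in hippocampus, at 0.57 to 1.14 in Y_Sham and 0.42 to 0.78 in AI_Sham animals, and in cortex measured -2.80 to -2.08 in Y_Sham and -0.07 to 0.66 in AI_Sham animals. Grik4 differed between the regions by -1.03 at an unadjusted limma p of 0.00318, with a cortex difference of 0.42. In cortex it measured 1.19 to 1.35 in Y_Sham and 2.39, 1.34, 1.53 and 1.6 in AI_Sham animals, and without AI_Sham 1, the highest, the differences of means were 0.19 in cortex and -0.78 between the regions. The regions differed by 0.55 for Tyrobp (unadjusted limma p 0.0399) and by 0.38 for Cd68 (unadjusted limma p 0.0988). Genes with a smaller unadjusted limma p than Tyrobp included Pitx3 (-2.82, p 8.035e-05), Bpifb4 (-1.70, p 0.000967) and Vill (1.92, p 0.00436). Pitx3 and Vill were not well above background on all hippocampus arrays.

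Of the alternatives run, taking the slide of the arrays into account changed the count of calls most. With slide as a block in the same model, limma called 891 probes (2.75%), 256 higher (0.79%) and 635 lower (1.96%). All 891 had the same sign without the block, and 680 of them were at an unadjusted p under 0.05 there. Slide 7 was the only slide with both groups, and its other groups also link slides 1 and 2 in this fit. Without AI_Sham 1 the blocked fit called 2 probes and had 4979 at an unadjusted p under 0.05, against 7605 with it. Among the genes above, Cd68 (1.04, limma adjusted p 0.0263), C4b (1.72, 0.0109), Tyrobp (0.88, 0.0375), S100a6 (1.49, 0.0287), Cdh1 (2.29, 0.0428), Ptx3 (-1.41, 0.0424), Grik4 (-0.76, 0.0385) and Lpl (-0.78, 0.0442) were called with slide as a block. Of the lists, 5 microglia genes (among them Cd68, Tyrobp, Trem2 and Fcer1g) and 8 oxidative phosphorylation genes were called higher.

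The leading genes did not overlap between the groups over all arrays. Their direction within a batch was therefore fixed in advance, and only the sizes of the differences are informative. Cd68 differed by 0.74 within batch 1 (3 AI_Sham and 2 Y_Sham arrays, on different slides) and by 1.42 on slide 7 (1 against 2 arrays). C4b differed by 1.18 and 1.67, Grik4 by -0.53 and -0.76, Lpl by -0.64 and -0.60, and Ptx3 by -1.06 and -1.37. Within batch 1 limma called 2 probes and on slide 7 it called 0, with 1665 and 4588 at an unadjusted p under 0.05.

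**Figure D5:**
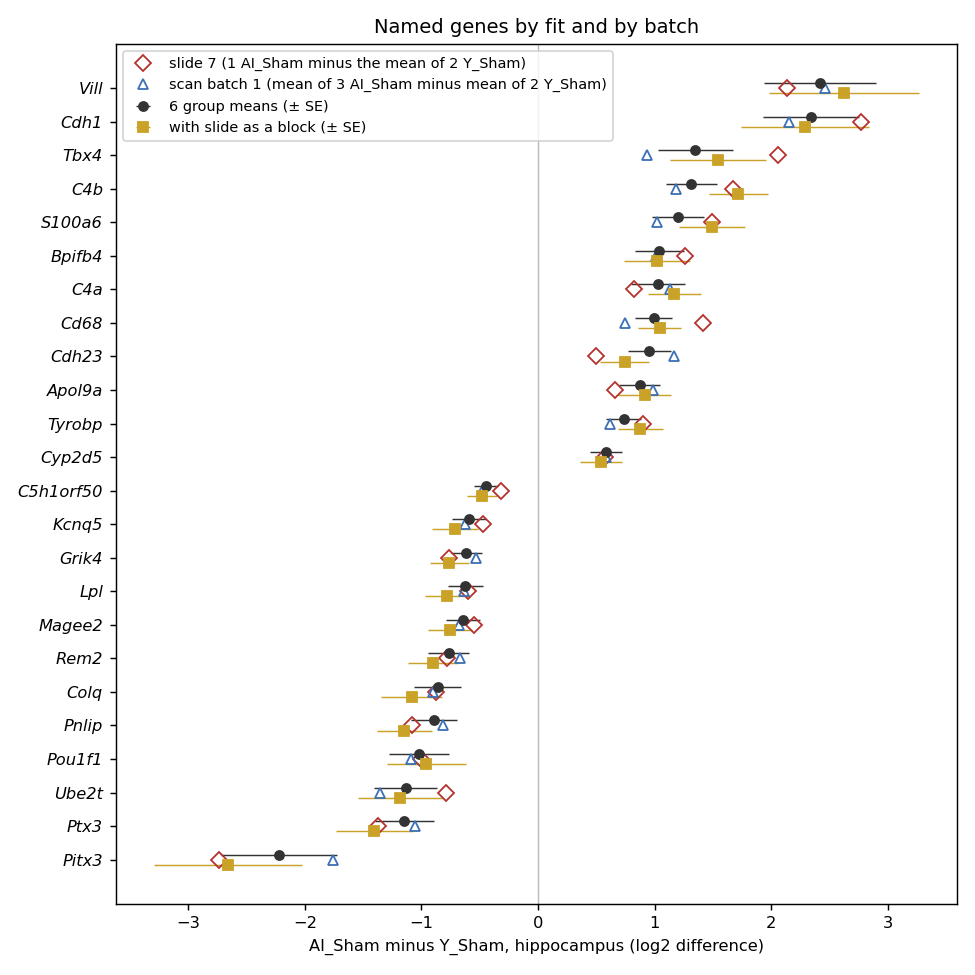
Difference AI_Sham minus Y_Sham in hippocampus (log2) for the 12 genes of smallest p in each direction, in the model of 6 group means and with slide as a block (± SE), and as differences of means on slide 7 (1 against 2 arrays) and within scan batch 1 (3 against 2 arrays, without error). Each gene keeps its direction in all 4 values, for example Cd68 (0.99, 1.04, 1.42, 0.74) and Grik4 (-0.62, -0.76, -0.76, -0.53). All genes but Pitx3 and Pou1f1 were without overlap over all arrays, so their differences within a batch could not change sign.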

How the data were processed

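RNA of single animals was hybridised to 1-colour Agilent rat arrays. Per the file headers, the deposited intensity values are background-subtracted and spatially detrended processed signals from Feature Extraction 12.0.3.1, with no scaling between arrays. A second deposited table holds score values, made by the authors as the z-score of each probe's log signal within its array, and was used as an alternative only. From the intensities, control spots and outlier spots were left out, spots of a probe were averaged, log2 signals were converted to z-scores within each array, and these were returned to a log2 scale with 1 factor for all arrays, their average SD (4.09). This scaling sets the mean and spread of all arrays equal, so the balance of higher and lower genes depends on it. Probes were named through their RefSeq accession (GRCr8 table, names only), which gave a symbol for 46.3% of 45598 probes. Probes without one are unnamed here.

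Group means of 6 groups were fitted over 24 hippocampus arrays, 1 per animal by the labels. The study's methods give fewer aged rats than the labels do, and the labels were followed. The fit used limma 3.58.1 in R 4.3.3 (18 residual degrees of freedom). The p-values were adjusted after Benjamini-Hochberg, with calls at an adjusted p under 0.05. Probes well above background on at least 3 of 24 arrays were tested. The number of arrays limits the precision. A gene is represented by its tested probe of highest mean signal. Named genes were the 12 of smallest p in each direction, a set list of 18 genes, and the members of 31 gene lists at an unadjusted p under 0.05 or of highest signal. Other genes are marked as chosen after their values were seen. The members and lists were chosen with earlier results of these data known. A fold bound for a probe not well above background in a group was taken against the lowest signal well above background of each array. Replicate numbers were examined by the correlation of deviations from group means. This did not settle whether the numbers pair the animals, and the main fit did not pair them. One array whose labels conflict entered no group. Alternatives were other scalings, background correction, filters, the methods' rule, slide, scan batch and replicate blocks, and leaving out arrays. The methods' rule was a z-test and ANOVA on z-scores, with a z-ratio beyond 1.5 and a false discovery rate under 0.3. The test was tried on simulated data before use. A few members of the gene lists are counted but not reported here by name.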

Additional observations from a re-analysis of the deposited data

Results flagged for a closer look

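In 4 of 80 groups of 4 arrays examined, 1 array lay far from the other 3, where chance gives about 1 in 20. Cdh23 was at -1.56 in Y_Sham 4 and at -1.24 to -1.2 in the other Y_Sham animals. Tyrobp was at 5.18 in Y_Sham 2 and at 5.68 to 5.78 in the others. Gfap was at 4.50 in Y_Sham 4, against 5.13 to 5.25 in the others, and Dcx was at 2.31 in Y_Sham 1.

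The age difference of the unnamed transcript called between the regions in hippocampus minus that in cortex was -2.98 (SE 0.36, limma adjusted p 0.00159). AI_Sham exceeded Y_Sham in cortex and the groups overlapped in hippocampus.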

How the results depend on the processing

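The count of probes called in AI_Sham minus Y_Sham was 0 and stayed at 0 with scaling to the 75th percentile, quantile normalization, the deposited z-scores, other filters on dim probes, averaged repeats and scan batch as a block. It was 3 with normexp, 2 with a mean z-score above 0, 1 with only the 8 arrays and 891 with slide as a block. It was 2 within batch 1, 2 with trend and robust moderation, and 0 to 7 when 1 array at a time was left out (7 without Y_Sham 3). The methods' rule selected 90 probes, at a false discovery rate under 0.3 and not at an adjusted p under 0.05. Alternatives chosen after seeing the data gave 3 without AI_Sham 1 and 3, and 2 with slide as a block and without AI_Sham 1. Probes higher at an unadjusted p under 0.05 (1217) numbered 725 with the deposited z-scores, 2735 with slide as a block, 682 within batch 1, 628 without AI_Sham 1 and 3, and 803 to 1937 with 1 array left out. Those lower (2345) numbered 1088 with the 75th percentile, 4870 with slide, 983 within batch 1, 932 without AI_Sham 1 and 3, and 1441 to 3740 with 1 array left out. The median of all probes was -0.06 to 0.03 under the scalings. The cause of these changes was not tested.

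The count for hippocampus minus cortex (1) was 5 with the 75th percentile, 5 with quantile normalization, 0 with normexp, 3 with no filter, 0 with a mean z-score above 0, 1726 with slide as a block, 2 with scan batch, 6 without AI_Sham 1 and 3, 3 with slide as a block and without AI_Sham 1, and 1 to 9 with 1 array left out. AI_iTBS minus Y_iTBS (45) gave 70 with quantile normalization, 87 with slide, 86 with scan batch and 39 to 49 with 1 array left out. The mean of the sham and stimulated age contrasts, added after the sham result was seen, gave 159 calls (118 higher, 41 lower), 1896 with slide, 404 with scan batch, 54 without AI_Sham 1 and 3, 77 with slide and without AI_Sham 1, and 85 to 532 with 1 array left out. AI_Sham minus AU_Sham (0) gave 4 with slide, and sham minus stimulated (0) gave 1 with no filter and 1 without AI_Sham 1 and 3. The replicate number as a block gave 0 calls in AI_Sham minus Y_Sham and 23 in AI_iTBS minus Y_iTBS. Same-numbered arrays correlated at -0.06 to 0.21, and 6 of 8 correlated best with their own number.

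The direction of all 24 genes of smallest p was kept in each alternative, and that of 8 of the 16 other set genes. These shares are not comparable, since the 24 were chosen by p in these data. All of the 24 but Pitx3 and Pou1f1 were without overlap between the groups, so leaving out arrays could not reverse them. Npy (0.09) was -0.038 with the 75th percentile, -0.075 with quantile normalization, -0.019 with scan batch, -0.067 within batch 1, -0.079 with slide and without AI_Sham 1, and -0.035 (without Y_Sham 1) to 0.22 with 1 array left out. Fkbp5 (0.05) was -0.00203, -0.010 and -0.027 with the 75th percentile, deposited z-scores and normexp, -0.069 within batch 1, and -0.021 (without Y_Sham 1) to 0.10 with 1 array left out. Gfap (0.03) was -0.020 with the deposited z-scores, -0.035 with slide, -0.082 on slide 7, -0.12 with slide and without AI_Sham 1, and -0.15 (without Y_Sham 4) to 0.11 with 1 array left out. It was also below 0 without AI_Sham 2 (-0.061). Dcx (-0.09) was 0.093 with slide, 0.23 on slide 7, and 0.072 with slide and without AI_Sham 1. Apoe was -0.062 with quantile normalization and Arc -0.016 within batch 1, and without AI_Sham 1 and 3 Ttr was -0.26 and Kl -0.69.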
